A study of Mus musculus with 23 samples.

Results

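Retinas titled DKO_P53KO were compared with wild-type (WT) retinas of the same set by stem-loop RT-qPCR of mature microRNAs (miRNAs). The samples of this set are labelled for the same figure of the paper, and the labels do not say that they were profiled together. The 7 samples were 4 DKO_P53KO and 3 WT samples, taken from 23 samples in the series by their column names, and all 522 assays of the table were considered. The set also holds 3 DKO samples, which entered the fits for the shared estimate of spread and are given beside the WT values. DKO is titled elsewhere in the series as deletion of floxed Rb by Chx10Cre together with p107 -/-. In this set the labels give only DKO and DKO_P53KO, read here as that genotype without and with loss of p53. Chx10Cre acts in retinal progenitors, so cells that do not descend from these could keep Rb. All samples are labelled retina of a mixed background strain, as fresh primary cells, with no treatment. Age, litter, sex and how p53 was removed are not given in the sources used here. The labels do not say that each sample is a separate animal, and the p-values reflect only the spread among these samples, which may be technical. Rb, p107 and p53 transcripts are not measured by the panel, which leaves the genotypes unchecked.

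Rb and p107 bind E2F transcription factors and hold back genes of DNA replication and division, among them the miR-17~92 and miR-106b~25 host transcripts. p53 is a stress-activated tumour suppressor whose direct targets include the miR-34 genes. A mature miRNA recognises its targets mainly through its seed, bases 2 to 8 from the 5′ end, so miRNAs with the same seed are counted as a family. In the retina, miR-183, miR-96 and miR-182 are made mostly by photoreceptors, and miR-124 and miR-9 by neurons and their progenitors.

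The miRNAs on which the results turn are shown with the seed in capitals, so that the families can be compared letter by letter. The sequences come from RefSeq (GRCm38.p6 tables), where 67 of the 70 assays looked up were found. The first group shares the seed AAAGUGC and rose throughout.
miR-17: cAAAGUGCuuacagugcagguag
miR-20a: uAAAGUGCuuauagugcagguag
miR-106a: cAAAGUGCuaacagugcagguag
miR-20b: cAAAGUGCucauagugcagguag
miR-106b: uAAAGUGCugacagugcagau
miR-93: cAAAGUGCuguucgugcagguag
miR-18a differs from these within the seed, and miR-19a and miR-19b have a seed of their own.
miR-18a: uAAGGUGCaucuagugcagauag
miR-19a: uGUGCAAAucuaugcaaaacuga
miR-19b: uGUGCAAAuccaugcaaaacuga
The next group comes from the same hairpin clusters but has the seed AUUGCAC, and none of its tested members was called.
miR-92: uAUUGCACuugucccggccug
miR-25: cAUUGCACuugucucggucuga
miR-449 and miR-34b-5p come from different chromosomes and have the seed GGCAGUG in common.
miR-449: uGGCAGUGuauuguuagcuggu
miR-34b-5p: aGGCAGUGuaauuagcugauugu
The sensory miRNAs, which fell, have seeds that are alike but not the same, and miR-211 and miR-204 share theirs.
miR-183: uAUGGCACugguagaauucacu
miR-96: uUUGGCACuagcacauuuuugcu
miR-182: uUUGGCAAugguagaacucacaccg
miR-211: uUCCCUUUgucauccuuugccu
miR-204: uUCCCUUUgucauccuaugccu
Some of these are close in sequence. The mature miR-17 and miR-106a differ at 1 of 23 positions, miR-20a and miR-20b at 2 of 23, miR-19a and miR-19b at 1 of 23, and miR-211 and miR-204 at 1 of 22. In 2 DKO_P53KO samples the miR-211 assay was at its floor while miR-204 was among the earliest to amplify. Whether these wells at the floor had failed was not tested. For all of the pairs, how far an assay reads its partner was not tested.

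The values are quantification cycles (Cq), where 1 cycle fewer means about double the template. Detection was set at a Cq of at most 32. Each Cq was turned into a log2 relative quantity, called the level here, by subtracting it from the sample's mean Cq over the 284 assays detected in all 10 samples of the set. Levels are not comparable between assays, because primers differ in efficiency. Values under a floor of −7.40, and assays not detected, were set to that floor. Between 307 and 320 assays were detected in the WT samples and between 329 and 350 in the DKO_P53KO samples, and 288 of the tested assays were detected in all 7. The mean Cq of the 284 assays was 24.01 ± 0.461 (SD, n = 3) in WT and 22.76 ± 0.461 (SD, n = 4) in DKO_P53KO, a difference of −1.254 cycles (two-sided exact permutation p = 0.0571, where the smallest possible is 0.0286). The changes below are relative to this shift. Without the scaling, the median change over all assays tested moved from −0.066 to 1.184, and no control RNA was used here that would set one scale over the other. The DKO_P53KO samples were also less alike than the WT samples. The SD of the assays' differences from the WT mean was 0.296 to 0.351 in the WT samples and 1.975, 1.753, 2.362 and 1.466 in DKO_P53KO replicates 1 to 4, so that replicate 3 stood farthest from WT and replicate 4 nearest. In the DKO samples it was 0.609 to 0.912. The SD over samples was larger in DKO_P53KO than in WT for 256 of the 284 assays, with a median of 0.585 against 0.194.

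Of the 330 assays tested, 47.0% differed between DKO_P53KO and WT (limma, adjusted p under 0.05). In DKO_P53KO, 72 were higher (21.8% of the tested assays) and 83 were lower (25.2%). The groups did not overlap in 177 assays (53.6%), 85 of them with DKO_P53KO higher (25.8%) and 92 with DKO_P53KO lower (27.9%). Rises of more than 2 log2 units were called for 42 assays and falls of that size for 26. Without the scaling 171 assays were called, 159 of them higher and 12 lower, so that 93% of the calls were rises against 46.5% with it, and 84 assays were called both ways. Without WT replicate 1 or WT replicate 2 the count of falls was 55 or 53. In bulk tissue, fewer cells of a type and less of a miRNA per cell cannot be told apart. For orientation, 2 of 309 assays (0.647%) were called between DKO and WT, and 135 of 330 (40.9%) between DKO_P53KO and DKO, comparisons that share samples with the present one. The comparison of DKO with WT used a spread shared with the more variable DKO_P53KO samples, which can lower its count. That count does not show that DKO equals WT. The SD of the assays' differences from the WT mean was 0.609 to 0.912 in DKO and 0.296 to 0.351 in WT.

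**Figure D1:**
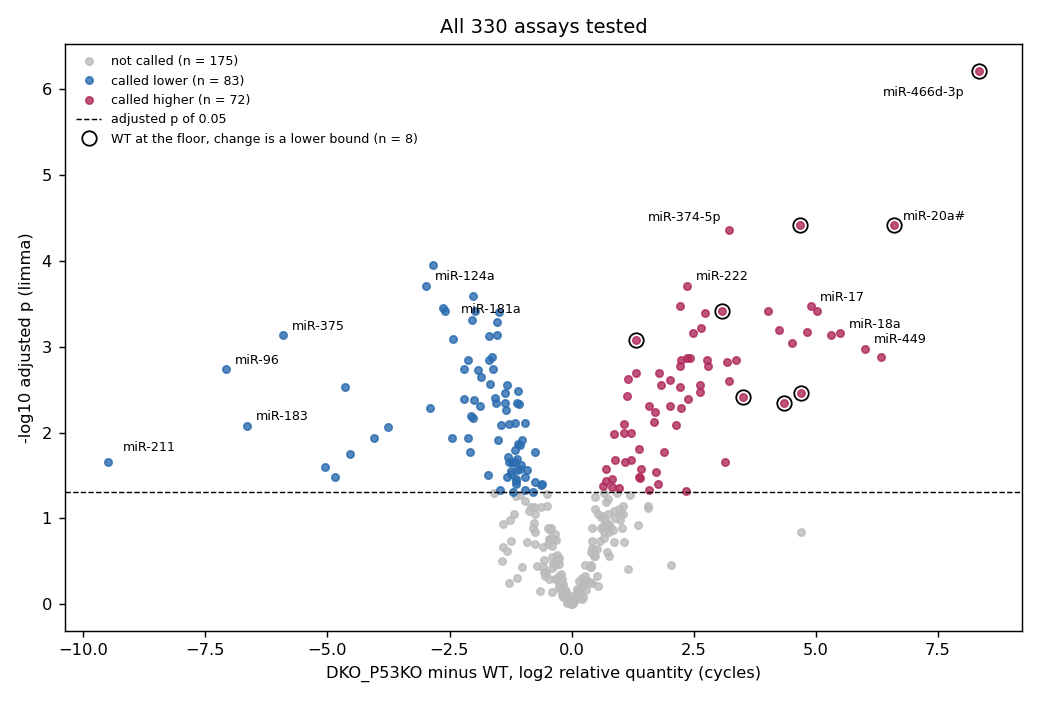
Change of each of the 330 tested assays (x axis, DKO_P53KO minus WT in log2 units) against −log10 of its adjusted p from limma (y axis); circled points have all WT samples at the floor, so their change is a lower bound. The 72 assays called higher reach up to 8.34 (miR-466d-3p) and the 83 called lower down to −9.49 (miR-211).

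Markers of some other cell types differed between the groups, and those of others were not called. Over all assays 21.8% were higher and 25.2% lower. Of 5 tested markers of white blood cells and microglia 3 rose and none fell, with a median change of 1.89. Their median level was −2.49 to −2.14 in the WT samples and −0.76 to 1.08 in the DKO_P53KO samples, without overlap. Among them, miR-142-5p was at the floor in all WT samples and at or near it in DKO_P53KO, miR-150 was at −0.57 and was not called, and miR-150# was detected in no sample. MiR-223, a further myeloid marker, was not analysed here. Without WT replicate 2, 2 of these markers were called. Markers of the pigment epithelium, the ciliary body and the lens were lower in 2 of 3, and in 1 of 3 without any single WT sample. Vessel markers were called in 0 of 2 (miR-126 at 0.74, adjusted p = 0.116), but in 2 of 2 without the scaling, and miR-126 also with the replicate block or without DKO_P53KO replicate 4. The red blood cell marker miR-486 was detected in none of the 7 samples, and the oligodendrocyte marker miR-219 was detected in 1. The part of these cells in the results below was not tested. In the WT samples, the 5 assays of lowest mean Cq included miR-9 and miR-182, both known from retina. They also included miR-204, counted here among the markers of the pigment epithelium, the ciliary body and the lens. In the order miR-204, miR-9, miR-709, miR-30c and miR-182, the mean Cq values were 14.9, 16.3, 16.5, 16.7 and 16.8. This order is rough, because primers differ in efficiency.

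**Figure D2:**
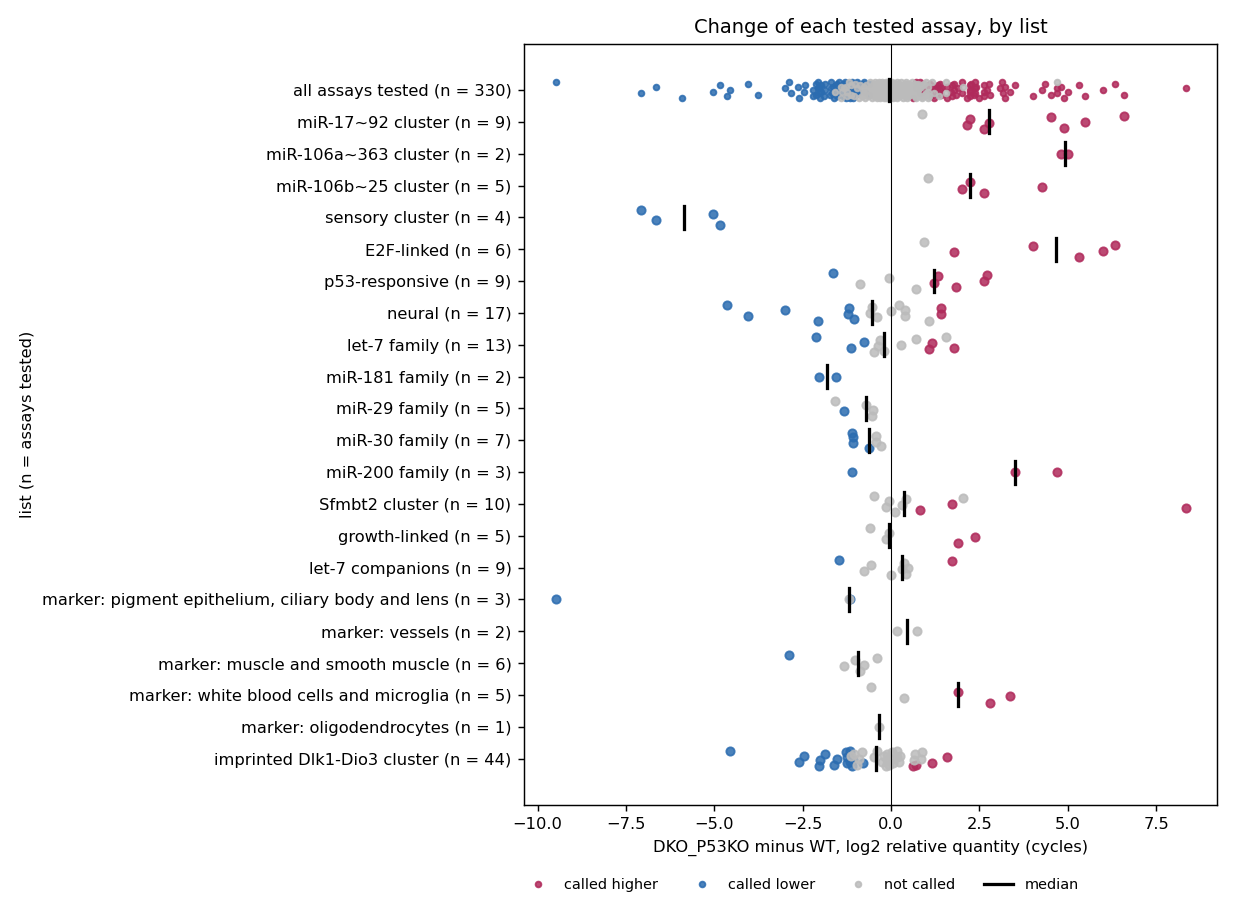
Change of each tested assay (x axis, DKO_P53KO minus WT in log2 units) in each list of miRNAs (y axis, with the number of tested assays); colours mark the call and the black bar is the median. The median over all 330 assays is −0.066, that of the miR-17~92 cluster 2.776 and that of the sensory cluster −5.850.

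The miR-17~92 cluster, a polycistron known for driving proliferation, was higher in DKO_P53KO in 8 of its 9 tested assays and lower in none. Over all assays 21.8% were higher. The median change was 2.78 against −0.07 over all assays. Of the 8, miR-20a# entered the test only through DKO_P53KO, and with only assays detected in all samples 7 of 8 were higher. The hairpins of the cluster lie on chromosome 14 at chr14:115043671-115044506 (GRCm38.p6, plus strand), and the last of them, miR-92, falls within the annotated host transcript Mir17hg. MiR-17 was at 2.15, 1.87 and 2.51 in WT replicates 1 to 3 and at 7.03, 7.17, 7.92 and 6.18 in DKO_P53KO replicates 1 to 4. All 4 DKO_P53KO samples lay far above the WT samples, with replicate 3 highest and replicate 4 lowest. The change was 4.90 ± 0.57 (SE, adjusted p = 0.000339), or 29.8-fold if each cycle doubles the template, and the mean Cq fell from 21.8 to 15.7. MiR-20a, with the same seed, had levels of 2.02, 2.04 and 2.01 in WT and 6.14, 6.76, 7.71 and 5.54 in DKO_P53KO, a change of 4.51 ± 0.69 (SE, adjusted p = 0.000893). The order of the 4 samples was that of miR-17 except that replicates 1 and 2 lay further apart. MiR-18a went from −5.04, −5.18 and −3.91 in WT to 0.36, 0.92, 2.00 and −0.12 in DKO_P53KO, a change of 5.50 ± 0.79 (SE, adjusted p = 0.000701). It was the largest change in the cluster among assays detected in all 7 samples.

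MiR-19a and miR-19b rose by smaller amounts than miR-17, miR-18a and miR-20a. MiR-19b also has a copy on the X chromosome. It was at 4.65, 4.22 and 4.41 in WT and 7.24, 7.17, 8.18 and 6.21 in DKO_P53KO, and rose by 2.78 ± 0.47 (SE, adjusted p = 0.00144), with groups that did not overlap. At a mean Cq of 15.6 it was among the 5 earliest-amplifying assays of DKO_P53KO, which it was not in WT. MiR-19a was at 0.01, −0.59 and −0.45 in WT and at 2.48, 2.06, 3.40 and 1.22 in DKO_P53KO, and rose by 2.64 ± 0.50 (SE, adjusted p = 0.00278). MiR-92, from the 3′ end of the same transcript and also from a copy on the X chromosome, had levels of 5.65, 5.30 and 5.59 in WT and 6.06, 6.32, 7.54 and 5.65 in DKO_P53KO. Replicate 4 lay within the WT range at the precision given, and the change of 0.88 ± 0.52 (SE) was not called (adjusted p = 0.188), although it was 2.13 and called without the scaling.

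The minor arms of the hairpins, which are usually degraded and are marked # in the assay names, rose as well. For miR-20a#, no WT or DKO well gave a Cq, and there were Cq values of 24.4, 22.8, 22.7 and 24.3 in DKO_P53KO, a rise of at least 6.60 log2, or at least 96.7-fold. That bound takes the undetermined wells as low, and failed wells were not tested for. MiR-17# was at −4.95, −3.76 and −4.87 in WT and −2.54, −2.60, −1.18 and −3.23 in DKO_P53KO, and rose by 2.14 ± 0.51 (SE, adjusted p = 0.00811). MiR-18a# rose by 2.22 ± 0.43 (SE, adjusted p = 0.00295). The 8 rises held when any single WT or DKO_P53KO sample was left out, with adjusted p up to 0.0376. With undetected values left missing there were 7, because miR-20a# then has no WT value. MiR-19a# and miR-92a# were not tested: the former gave Cq values from 32.7 to 34.3 in DKO_P53KO, all beyond the detection limit, and the latter was undetermined.

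**Figure D3:**
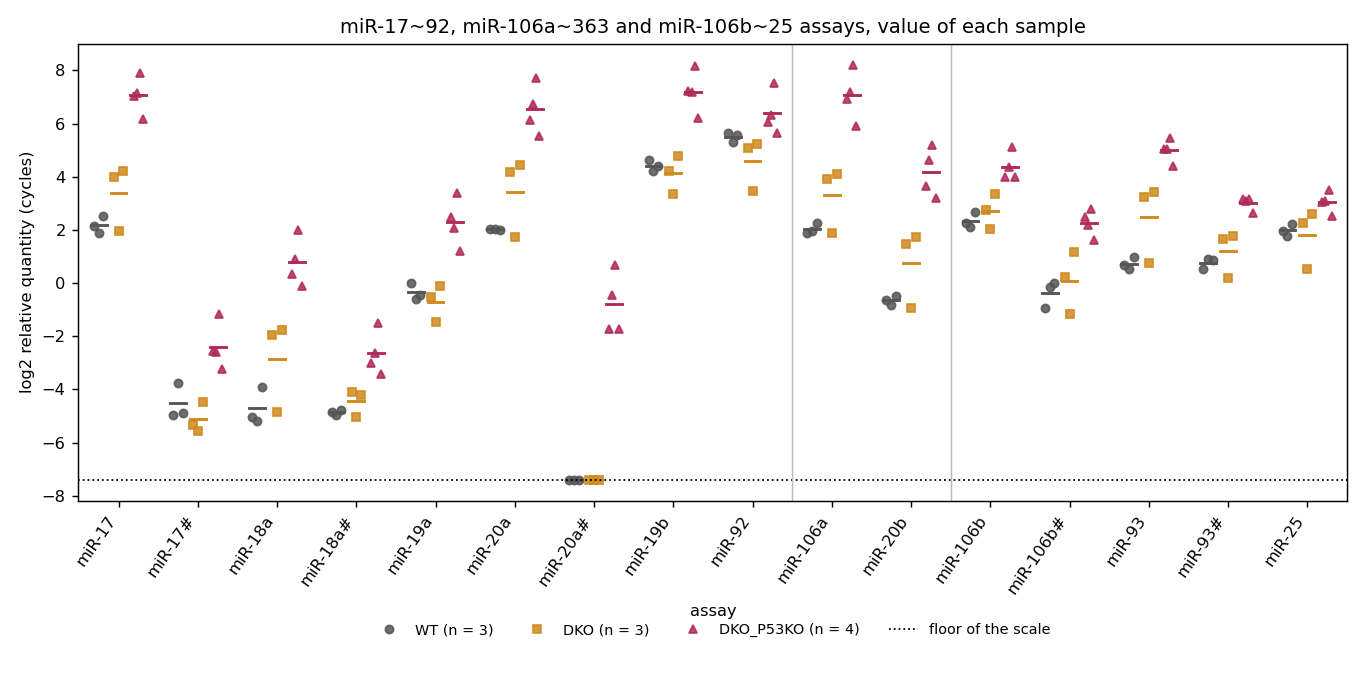
Level of each sample (y axis, log2 relative quantity) for the tested assays of the miR-17~92, miR-106a/miR-363 and miR-106b~25 clusters, separated by grey lines (x axis); points are samples, bars are group means and the dotted line is the floor. DKO_P53KO lies above WT in all assays but miR-92, where the lowest DKO_P53KO sample is at 5.65 and the highest WT sample at 5.65.

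The paralogous cluster miR-106a/miR-363 lies on the X chromosome, between chrX:52741693 and chrX:52742567 on the minus strand. Its copies of miR-19b and miR-92 were counted above with miR-17~92. Both tested assays counted under this cluster rose. MiR-106a was at 1.90, 1.96 and 2.27 in WT and 6.92, 7.20, 8.22 and 5.92 in DKO_P53KO, a change of 5.02 ± 0.62 (SE, adjusted p = 0.000379). MiR-20b was at −0.65, −0.82 and −0.49 and 3.65, 4.64, 5.19 and 3.19, a change of 4.82 ± 0.68 (SE, adjusted p = 0.000678). Neither assay overlapped between the groups. Both are near-identical to members of miR-17~92. The other 3 assays of the cluster gave no value that could be tested, as miR-18b and miR-20b# were undetermined in all 7 samples and miR-363 gave only a Cq of 32.8 in DKO_P53KO replicate 1.

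The third paralogue, miR-106b~25, is carried in an intron of Mcm7, which encodes a subunit of the replicative helicase. Its hairpins span chr5:138165321-138165818 on the minus strand, within the Mcm7 gene. Of its 5 assays 4 rose and none fell, with a median change of 2.25, where 21.8% of all assays rose. In all 5 the groups did not overlap, against 53.6% of all assays. MiR-93 was at 0.70, 0.52 and 0.99 in WT and 5.06, 5.05, 5.47 and 4.39 in DKO_P53KO, a change of 4.26 ± 0.59 (SE, adjusted p = 0.000645). MiR-106b, from the first hairpin of the same transcript, was at 2.26, 2.11 and 2.67 and 4.00, 4.36, 5.10 and 4.00 and rose by 2.02 ± 0.38 (SE, adjusted p = 0.00245). The passenger arms miR-106b# and miR-93# rose by 2.62 ± 0.52 and 2.25 ± 0.38 (SE). MiR-25 was at 1.97, 1.79 and 2.24 in WT and 3.06, 3.10, 3.50 and 2.52 in DKO_P53KO. Its change of 1.05 ± 0.46 (SE) was not called (adjusted p = 0.0890), although it was called without the scaling, when DKO was left out of the fit and with replicate number as a block.

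Mcm7 is known as a gene that E2F factors activate, and its transcript was not measured here. Because 4 assays from its intron rose together, its RefSeq promoter windows were searched for E2F-type motifs. The letters searched were TTTGGCGC, TTTCGCGC, TTTCCCGC and TTTGCCGC, on both strands, in windows of 300 bases from 250 before to 50 after a start. One Mcm7 window, chr5:138171834-138172133 (GRCm38.p6, minus strand), holds 2 matches, shown in capitals: TTTCCCGC read on the opposite strand and TTTCGCGC.
Mcm7 promoter: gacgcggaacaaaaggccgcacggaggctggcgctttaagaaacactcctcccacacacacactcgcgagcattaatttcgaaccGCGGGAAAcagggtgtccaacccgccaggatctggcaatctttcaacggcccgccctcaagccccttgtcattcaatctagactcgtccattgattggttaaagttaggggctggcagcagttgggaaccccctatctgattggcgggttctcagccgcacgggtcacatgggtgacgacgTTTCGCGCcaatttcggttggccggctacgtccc
The second annotated Mcm7 window has none, nor has that of Cdc20b, the gene that holds miR-449. Of 32851 windows of this length, 744 (2.26%) hold a match. A match describes letters, and no binding was measured.

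Sorted by seed rather than by cluster, the families differed. All 6 assays with the seed AAAGUGC were called higher, with changes from 2.02 (miR-106b) to 5.02 (miR-106a) and a median of 4.67. Both assays with GUGCAAA, miR-19a and miR-19b, rose by about the same amount. Of the 3 tested assays with AUUGCAC none was called: miR-92 at 0.88, miR-25 at 1.05 and miR-32, whose gene lies apart in Tmem245 on chromosome 4, at 0.22, with 3 of 4 DKO_P53KO samples at the floor. MiR-92 and miR-25 come from the same transcripts as members that rose, and the difference between members of one transcript was not tested. The AGCAGCA family, known for restraining the cell cycle, was mixed, as miR-15b, miR-195 and miR-497 rose by 1.77, 1.07 and 1.70, miR-15a fell by 1.01, and miR-16 was at 0.92 and not called (adjusted p = 0.0505). MiR-16 was called without the scaling, with only assays detected in all samples, with trended robust estimation, with the replicate block and without DKO_P53KO replicate 4. The opposite arm of miR-15a, miR-15a#, has another seed and rose by 2.01 (limma, adjusted p = 0.00489). MiR-195, miR-497, miR-15a and miR-15a# were chosen for this after their values were seen.

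Other miRNAs linked to E2F had 5 of 6 tested assays higher and none lower, with a median change of 4.66. In none of the 6 did the groups overlap. Over all assays 21.8% were higher, and the groups did not overlap in 53.6%. MiR-449, which lies in an intron of Cdc20b at chr13:113037534-113037624 and is known as a direct target of E2F1, was at −2.78, −3.33 and −2.40 in WT and 4.41, 2.99, 1.99 and 3.28 in DKO_P53KO. Replicate 1 was highest and replicate 3 lowest, unlike in the miR-17 family, where replicate 3 was highest. The change was 6.01 ± 0.94 (SE, adjusted p = 0.00106), or 64.2-fold. Its neighbour miR-449b was at −5.44, −5.63 and −4.66 and 2.56, 0.66, 0.00 and 1.16, a change of 6.33 ± 1.03 (SE, adjusted p = 0.00133), the largest rise among assays detected in all 7 samples. Another assay for miR-449b was detected in none of the 7 samples and was not tested, so this rise rests on 1 of the miR-449b assays. In DKO, miR-449 was at −0.33, −4.50 and −0.92, with replicate 2 below and the other replicates above the WT samples. MiR-15b and miR-16 share a host, Smc4 on chromosome 3, with hairpins between chr3:69009772 and chr3:69009996, although miR-16 has a copy on chromosome 14 as well. MiR-15b# was at −3.14, −3.12 and −3.30 in WT and 2.64, 2.22, 2.80 and 0.81 in DKO_P53KO and rose by 5.31 ± 0.77 (SE, adjusted p = 0.000734). MiR-16# had 2 WT samples at the floor and rose by 4.02 ± 0.50 (SE, adjusted p = 0.000379). From which copy of miR-16 this arm comes was not determined. MiR-15b itself rose by 1.77 ± 0.62 (SE, adjusted p = 0.0402), a call that ended with median scaling and without any single WT sample or DKO_P53KO replicate 2 or 3, with adjusted p up to 0.113.

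Among miRNAs known to respond to p53, the miR-34b and miR-34c arms rose although p53 is lost by label. Of 9 tested assays of this list 5 rose and 1 fell, with a median change of 1.22. Over all assays 21.8% were higher and 25.2% lower. With only assays detected in all samples, 3 of 7 assays of the list rose and 1 fell, with a median of 0.71. MiR-34b-3p was at −1.01, −1.28 and −1.05 in WT and 1.65, 1.43, 2.01 and 1.37 in DKO_P53KO, without overlap, and rose by 2.72 ± 0.35 (SE, adjusted p = 0.000402). From the other arm of the hairpin, miR-34b-5p rose by 2.64 ± 0.36 (SE, adjusted p = 0.000610), with WT replicate 3 at the floor. MiR-34c and miR-34c#, encoded beside it on chromosome 9 (hairpins within chr9:51103034-51103645, inside the intervals of Btg4 and Hoatz), rose by 1.84 and 1.22. MiR-215 was at the floor in all WT and DKO samples and just above it in DKO_P53KO, at −6.17, −6.29, −5.68 and −6.18, a rise of at least 1.32. The fall was that of miR-107, from −1.45, −1.48 and −1.44 to −3.64, −3.11, −2.48 and −3.12, a change of −1.63 ± 0.26 (SE, adjusted p = 0.00133) that was not called without the scaling. MiR-192, miR-194 and miR-145 were at 0.71, −0.07 and −0.87 and were not called. MiR-34a was not analysed here. The DKO samples were at 0.69, −0.86 and 0.15 for miR-34b-3p, all between the WT and the DKO_P53KO samples.

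Apart from these groups, the largest rises were among assays undetected in WT. MiR-466d-3p, from the large intronic cluster of Sfmbt2, was undetected in all 6 WT and DKO samples and at 1.91, 0.08, 0.71 and 1.07 in DKO_P53KO. The rise was at least 8.34 log2, or at least 325-fold, the largest of all. Of the 10 tested assays of the Sfmbt2 list 3 rose and none fell, with a median of 0.36, where 21.8% of all assays rose. MiR-466d-3p entered the test only through DKO_P53KO, and without the scaling 7 rose. The 8 assays of the list that were not tested were detected in none of the 7 compared samples. Among them were all other miR-466 assays, with miR-466d-5p from the opposite arm. MiR-467c rose by 1.72, and a miR-467a assay by 0.82, a call that ended without any single WT sample and in 5 other settings. MiR-10a, from the Hoxb cluster, was at −1.88, −2.72, −1.96 and −4.21 in DKO_P53KO and undetected in WT, a rise of at least 4.71. It too entered the test only through DKO_P53KO. One DKO sample, replicate 1, had it at −3.49.

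The miR-200 family, which holds cells in an epithelial state, has 9 assays, of which 6 were not tested. MiR-200b and miR-200c entered the test only through the DKO_P53KO samples, where they were detected, so their calls follow in part from the filter. MiR-200c was at −3.20, −1.72, −2.62 and −3.33 and miR-200b at −5.20, −1.62, −4.88 and −3.85, against no detection in any WT or DKO sample, so that the rises were at least 4.68 and at least 3.51. Replicate 2 was highest in both. In the same replicate miR-200a and miR-429, encoded beside miR-200b, had Cq values of 24.9 and 25.9, and neither was detected in any other of the 7 samples. MiR-205, a miRNA of stratified epithelia chosen here after its values were seen, was likewise highest in replicate 2, at −3.90, −2.74, −5.34 and −4.49. It rose by 3.23 ± 0.61 (SE, adjusted p = 0.00252) from WT levels at or near the floor, so the SE may be too small. The part of epithelial cells in these values was not tested. MiR-141# fell by 1.11 (adjusted p = 0.0205), but was at 0.14 without the scaling. Its call also ended without WT replicate 2 or WT replicate 3.

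MiR-374-5p, from an X-linked cluster, rose by nearly the same amount in each sample. It was at −0.20, −0.22 and −0.13 in WT, −0.13, −1.03 and −0.14 in DKO and 3.24, 3.24, 2.73 and 2.94 in DKO_P53KO, a change from WT of 3.22 ± 0.27 (SE, adjusted p = 4.4e-05) and from DKO of 3.47. The comparisons with WT and with DKO share the DKO_P53KO samples. MiR-27a# was at −5.76, −5.59 and −5.85 in WT and −1.39, −2.43, −2.99 and −3.41 in DKO_P53KO and rose by 3.18 ± 0.54 (SE, adjusted p = 0.00151). MiR-222, which targets the cell cycle inhibitor p27, was at 1.09, 0.82 and 1.31 in WT and 3.60, 3.62, 3.15 and 3.39 in DKO_P53KO, a change of 2.37 ± 0.25 (SE, adjusted p = 0.000194). Its cluster partner miR-221, with the same seed, was at 0.06, −0.24 and 0.21 and −1.25, 0.10, 0.71 and −0.12, a change of −0.15 that was not called. MiR-21, the best known of the tumour-linked miRNAs, was at −0.06 and not called either. Where 21.8% of all assays rose, 2 of 5 tested growth-linked assays rose and none fell. Without WT replicate 2, 1 rose, and without DKO_P53KO replicate 1 there was also 1 that fell.

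Of the myeloid and inflammatory miRNAs, miR-142-3p, a marker of blood-derived cells, was at −3.36, −3.52 and −4.10 in WT and 0.05, −1.42, 1.08 and −0.85 in DKO_P53KO. Replicate 3 was highest, and no sample overlapped with WT. The change was 3.38 ± 0.56 (SE, adjusted p = 0.00144). MiR-146a, which dampens inflammatory signalling, was at 0.35, 0.07 and 0.65 in WT, 3.34, 1.34 and 1.70 in DKO and 3.43, 2.77, 3.79 and 2.63 in DKO_P53KO, and rose by 2.80 ± 0.48 (SE, adjusted p = 0.00170). DKO lay above WT in all 3 samples, and replicate 1 of DKO was within the range of DKO_P53KO. MiR-155, induced in activated immune cells, was at −2.21, −2.49 and −2.14 and 0.31, −0.16, −0.95 and −0.76 and rose by 1.89 ± 0.53 (SE, adjusted p = 0.0168), a call that ended without WT replicate 2 (adjusted p = 0.0589).

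The sensory cluster, known for its high levels in photoreceptors, fell in all 4 assays, with a median change of −5.85, where 25.2% of all assays fell. Its hairpins lie between chr6:30165918 and chr6:30169737 on the minus strand, within the transcript Mirc35hg. MiR-96 was at 3.70, 3.65 and 3.71 in WT and −1.59, −2.41, −7.40 and −2.20 in DKO_P53KO, where replicate 3 was at the floor. The change was −7.09 ± 1.25 (SE, adjusted p = 0.00183), or 136-fold lower. MiR-183 was at 5.25, 5.24 and 4.94 in WT and 0.66, 0.18, −6.94 and 0.06 in DKO_P53KO, a change of −6.65 ± 1.61 (SE, adjusted p = 0.00830). Replicates 1, 2 and 4 were within 1 unit of each other and replicate 3 was far below them, so the SE is large. MiR-182 was at 7.26, 6.97 and 7.30 in WT and 4.81, 3.66, −2.97 and 3.02 in DKO_P53KO. Replicate 3 was again lowest, and the change of −5.05 ± 1.55 (SE, adjusted p = 0.0249) was −3.33 without it. MiR-183# changed by −4.85 ± 1.59 (SE, adjusted p = 0.0326), or by −3.07 without replicate 3. The calls of miR-182 and miR-183# ended without scaling, with DKO left out of the fit and without any single WT sample, so that 2 of the 4 assays were then called. In DKO, miR-96 was at −0.61, 1.67 and 0.83 and miR-183 at 1.55, 3.07 and 2.75, between the other groups in both. In none of the 4 assays did DKO_P53KO overlap with WT.

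**Figure D4:**
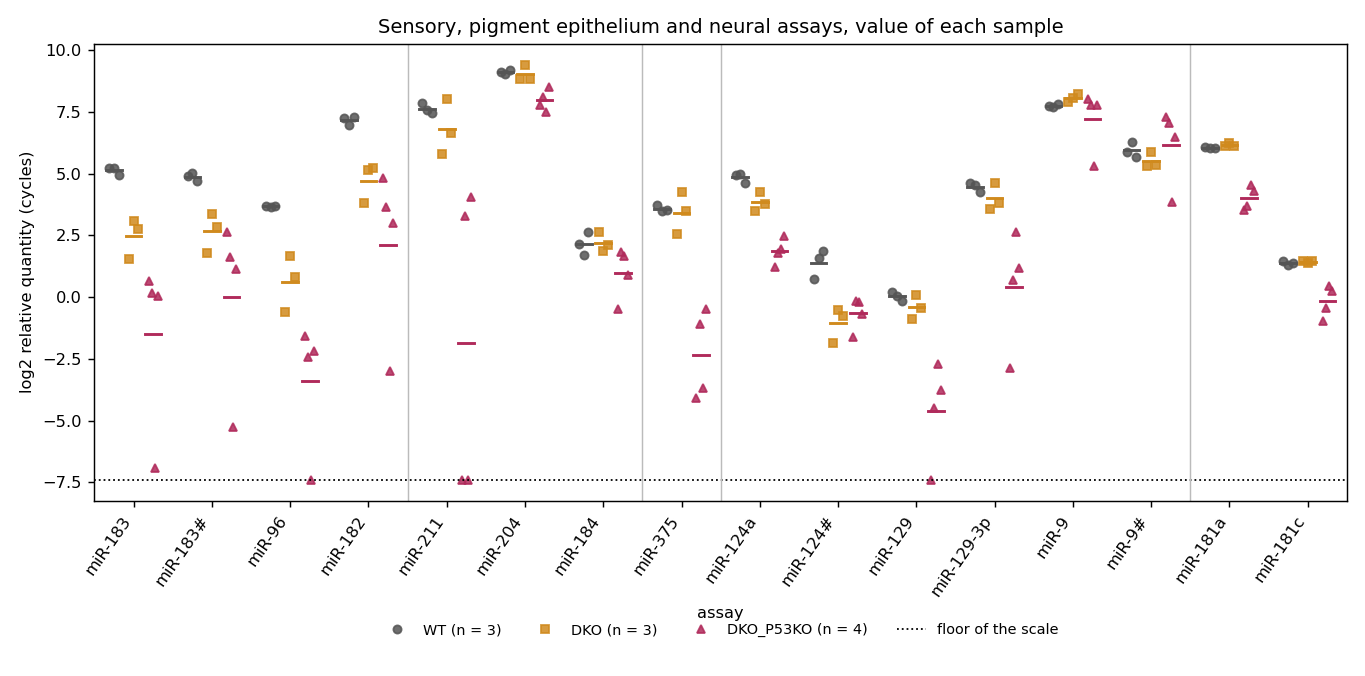
Level of each sample (y axis, log2 relative quantity) for assays of the sensory cluster, of the pigment epithelium, the ciliary body and the lens, of miR-375, of the miR-124, miR-129 and miR-9 arms and of miR-181, separated by grey lines (x axis); points are samples, bars are group means and the dotted line is the floor. DKO_P53KO lies below WT throughout the sensory cluster, with replicate 3 at −6.94 for miR-183, whereas the miR-9 arms overlap with WT.

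MiR-211 and miR-204 sit in introns of Trpm1 (chr7:64205806-64205911) and Trpm3 (chr19:22750605-22750672), channel genes expressed in bipolar cells and in pigment epithelium. MiR-211 was at 7.85, 7.57 and 7.46 in WT and −7.40, 3.28, −7.40 and 4.06 in DKO_P53KO. Replicates 1 and 3 were at the floor and replicates 2 and 4 only a few cycles under WT, so the samples of this group were far apart. The change was −9.49 ± 2.81 (SE, adjusted p = 0.0221), the largest fall of all, and was −3.96 with the undetected values left missing. The call ended without any single WT sample, with adjusted p up to 0.0635. MiR-204 was at 9.12, 9.05 and 9.19 in WT and 7.78, 8.10, 7.50 and 8.50 in DKO_P53KO and fell by 1.15 (SE 0.27, adjusted p = 0.00784). Its unscaled Cq hardly differed, at a mean of 14.9 in WT and 14.8 in DKO_P53KO, and without the scaling its change was 0.105. MiR-184 was at 2.15, 1.72 and 2.63 and −0.46, 1.81, 1.66 and 0.90, with overlapping groups and no call.

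MiR-375, known from endocrine and neuroendocrine cells, was at 3.71, 3.48 and 3.53 in WT, 2.55, 4.27 and 3.47 in DKO and −4.08, −1.10, −3.69 and −0.47 in DKO_P53KO. WT and DKO overlapped, and DKO_P53KO lay below both in every sample, with replicates 1 and 3 lowest. The change from WT was −5.91 ± 0.86 (SE, adjusted p = 0.000734), or 60.0-fold lower, and that of DKO from WT was −0.15.

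The neural list had 7 of 17 tested assays lower and 2 higher, with a median of −0.54, against 25.2% lower and 21.8% higher over all assays. MiR-124a, the best known neuronal miRNA, was at 4.95, 4.98 and 4.61 in WT, 3.49, 4.26 and 3.77 in DKO and 1.24, 1.78, 1.95 and 2.46 in DKO_P53KO. Its change of −2.99 ± 0.31 (SE, adjusted p = 0.000194) held without the scaling, at −1.74. MiR-124# was at −2.05 and called, but no longer without the scaling. MiR-129-3p was at 4.61, 4.52 and 4.25 in WT and −2.87, 0.69, 2.63 and 1.17 in DKO_P53KO, where replicate 1 was lowest, and fell by 4.06 (SE 1.04, adjusted p = 0.0116). The opposite arm, read by the miR-129 assay, was at 0.22, 0.04 and −0.14 and −7.40, −4.49, −2.73 and −3.77, a change of −4.64 ± 0.90 (SE, adjusted p = 0.00296). MiR-128a, miR-138 and miR-7b fell by 1.23, 1.05 and 1.19. The rises were those of miR-137 (1.43, adjusted p = 0.0265) and miR-218-2# (1.40, adjusted p = 0.0337), the latter with all WT samples and DKO_P53KO replicate 1 at the floor. Without any single WT sample, 4 assays of the list were lower and none higher. With the replicate number as a block these were 5 and 0, and without the scaling 3 and 6.

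MiR-9, which acts in neural progenitors and neurons, did not pass the test. It was at 7.74, 7.70 and 7.84 in WT and at 8.02, 7.76, 5.31 and 7.80 in DKO_P53KO. Replicates 1, 2 and 4 were at or a little above the WT levels, and replicate 3 was more than 2 units under them. Its opposite arm, miR-9#, showed the same replicate lowest, at 7.30, 7.05, 3.87 and 6.48 against 5.87, 6.30 and 5.69 in WT. Replicate 3 was thus lowest in the sensory assays and in both arms of miR-9, and highest in miR-17, miR-20a, miR-18a and miR-19b.

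Let-7 miRNAs, which rise as progenitors mature and restrain growth genes, had members called in either direction. Of 13 tested assays 3 rose and 3 fell, with a median of −0.20, which is close to the shares over all assays (21.8% higher and 25.2% lower). Let-7b was at 6.16, 5.90 and 5.91 in WT and 7.51, 7.31, 6.66 and 7.07 in DKO_P53KO and rose by 1.15 ± 0.23 (SE, adjusted p = 0.00371). Let-7c rose by 1.07 (SE 0.27, adjusted p = 0.0102) and, at a mean Cq of 14.98, was among the 5 earliest assays in DKO_P53KO. Let-7a, which differs from let-7c at 1 of 22 positions, was at 5.27, 5.09 and 5.15 and 3.49, 4.24, 4.29 and 4.16 and fell by 1.12 (SE 0.24, adjusted p = 0.00448). Its opposite arm let-7a# rose by 1.78, and let-7d# fell by 2.12, without a call when unscaled. Let-7f fell by 0.76, and let-7d, let-7e, let-7g and let-7i lay between −0.49 and 0.28 without a call. Without the scaling 6 let-7 assays were called higher and none lower.

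Both tested miR-181 assays fell. MiR-181a was at 6.09, 6.03 and 6.05 in WT, 6.12, 6.23 and 6.11 in DKO and 3.53, 3.67, 4.56 and 4.32 in DKO_P53KO, so that WT and DKO were nearly equal and DKO_P53KO lay about 2 units lower. The change was −2.04 ± 0.27 (SE, adjusted p = 0.000486), and that of miR-181c −1.56 ± 0.32 (SE, adjusted p = 0.00401). Neither was called without the scaling, at −0.78 and −0.31. The miR-30 family, known from differentiated tissues, had 4 of 7 assays lower and none higher, against 25.2% lower and 21.8% higher over all assays. MiR-30d changed by −1.08 ± 0.23 (SE, adjusted p = 0.00463), miR-30a-5p by −1.07 and miR-30b# by −1.11, and without the scaling all 3 were slightly positive, at 0.17, 0.19 and 0.15. Without WT replicate 2, 1 miR-30 assay was called. Of the miR-29 family 1 of 5 assays fell, miR-29c# at −1.33, and no call was left without the scaling, WT replicate 1 or 2 or DKO_P53KO replicate 1 or 3. With median scaling or the replicate block 3 assays fell. Of 9 let-7 companions, miR-99b fell by 1.48 (SE 0.19, adjusted p = 0.000398; −0.23 and not called without the scaling). MiR-125b# rose by 1.73, but its groups overlapped and its call ended without WT replicate 1 or 3 or DKO_P53KO replicate 1, 2 or 4, or with DKO left out of the fit. Without DKO_P53KO replicate 3, 5 of these companions were called higher.

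The imprinted Dlk1-Dio3 cluster on chromosome 12, which is active in neurons and embryonic tissues, had 16 of 44 tested assays lower and 4 higher, with a median of −0.44, against 25.2% lower and 21.8% higher over all assays. MiR-409-5p was at −1.73, −1.93 and −1.62 in WT, −1.72, −1.15 and −1.70 in DKO and −4.18, −4.90, −4.74 and −3.62 in DKO_P53KO, and fell by 2.60 (SE 0.33, adjusted p = 0.000379). MiR-329 changed by −2.03 ± 0.22 (SE, adjusted p = 0.000254) and miR-668 by −2.46 ± 0.64 (SE, adjusted p = 0.0117), and neither was called without the scaling. MiR-770-5p had 3 of 4 DKO_P53KO samples at the floor, at −7.40, −7.40, −7.40 and −7.28 against −6.11, −5.90 and −5.51 in WT, and was called lower. The 4 rises were those of miR-376c (1.59), miR-411 (1.15), miR-379 (0.70) and miR-411# (0.63). Without the scaling 12 assays were called higher and 3 lower, and the median was 0.82. Without WT replicate 1, 2 or 3 the falls were 8, 7 and 10, and without DKO_P53KO replicate 2 they were 9. The rises were 2 without any single WT sample or DKO_P53KO replicate 1, and 7 without DKO_P53KO replicate 3.

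A few further falls belonged to none of these groups. MiR-206, a muscle miRNA, was at −1.23, −1.23 and −0.97 in WT and −5.63, −3.59, −4.59 and −2.37 in DKO_P53KO and fell by 2.90 (SE 0.64, adjusted p = 0.00513), but was not called without the scaling. The other tested muscle and smooth muscle markers (miR-1, miR-133a, miR-133b, miR-143 and miR-145) were not called, at −1.32 to −0.40. One miR-378 assay was at −2.76, −2.04 and −2.72 in WT, −4.51, −3.90 and −4.04 in DKO and −5.31, −5.63, −5.42 and −5.01 in DKO_P53KO, and fell by 2.84 (SE 0.27, adjusted p = 0.000112), with DKO between the other groups. MiR-702 fell by 2.43 (SE 0.36), but was not called without the scaling. No assay of the embryonic-type clusters miR-290 to miR-295, miR-302 and miR-367 could be tested, and 20 of the 22 were detected in none of the 7 samples.

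Of the assays detected in all 7 samples, the 5 that varied most within DKO_P53KO included 2 with no call. MiR-190b was at 4.87, 4.92 and 4.37 in WT and −1.96, 7.03, 9.74 and 3.72 in DKO_P53KO, a spread from far below to far above WT, and its mean change was −0.09 ± 2.20 (SE). MiR-483#, from the Igf2 gene, was at −1.54, −1.43 and −2.01 in WT and 5.99, 3.13, −2.71 and 5.80 in DKO_P53KO. Replicates 1, 2 and 4 lay above WT and replicate 3 below it, and its change of 4.71 ± 2.49 (SE) was not called, except without replicate 3. The other assays of the 5 were miR-183, miR-183# and miR-182. MiR-211, not detected in all 7, was more spread still.

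Both arms of 66 miRNAs were tested. In 21 of them both arms were called, in the same direction for 18, and in 47 of the 66 the arms had the same sign (Pearson r = 0.653 across miRNAs, which share the 7 samples). MiR-183, miR-129, miR-34b and miR-106b had arms that moved alike. The largest gap was that of miR-296, whose main assay fell by 1.46 (adjusted p = 0.0468) while miR-296-3p rose by at least 4.35, from the floor in all WT samples to −3.75, −3.78, −1.35 and −3.34. The fall of the former ended in 11 of the 16 alternatives. The latter entered the test only through DKO_P53KO, so its call follows in part from the filter. In miR-485 the -3p arm was at −0.39 and not called, and the -5p arm was at −1.21, −1.25 and −1.78 in WT but at −7.40, −7.40, −7.40 and −1.65 in DKO_P53KO. Of these, 3 samples were at the floor and replicate 4 was within the WT range. The change of −4.55 was −0.24 with undetected values left missing, and the call ended without WT replicate 1 or 2 as well. In miR-15b and miR-16 the minor arm had the larger rise, with miR-16 itself not called, and in miR-18a and miR-17 it had the smaller one. The differences between arms were not tested.

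**Figure D5:**
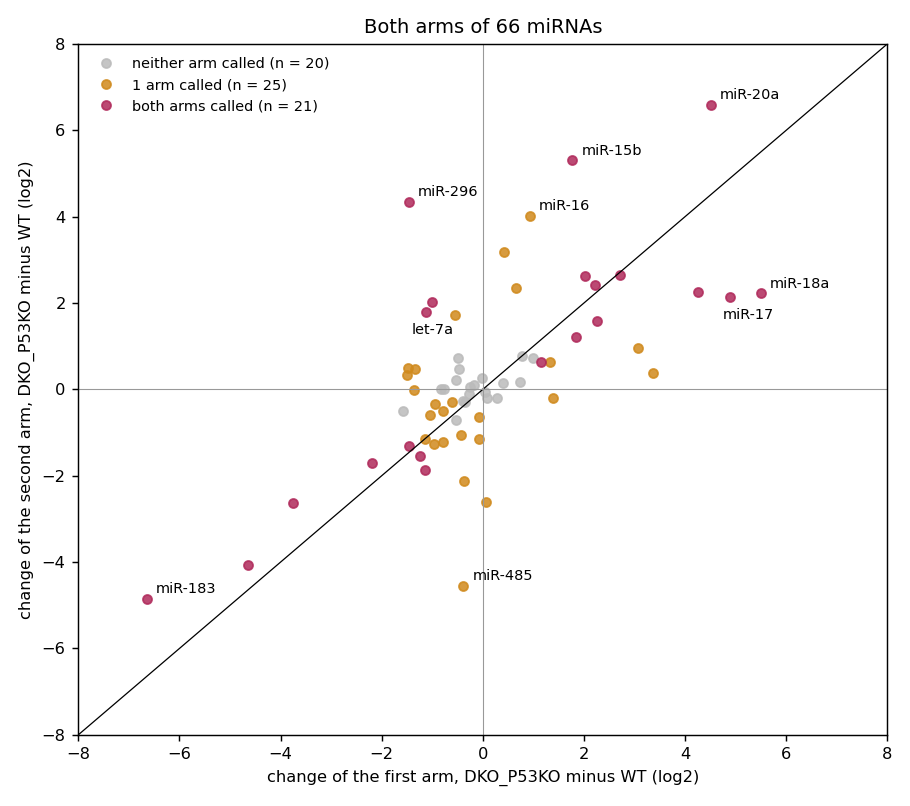
Change of 2 assays from each of 66 miRNA hairpins, 1 for each arm (x axis, the first arm by assay name; y axis, the second; DKO_P53KO minus WT in log2 units), coloured by how many arms were called, with the line of equal change. Of the 21 miRNAs with both arms called 18 lie in the lower left or upper right part, and miR-296 lies farthest from the line.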

How the data were processed

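Quantification cycles (Cq) were deposited by the authors as a table named as not normalized, with 522 assays and 10 unnamed empty columns that were not used. Per the labels, RNA was extracted with a microRNeasy kit, reverse transcribed in a megaplex reaction and pre-amplified for 14 cycles. How the Cq were called (software, threshold and baseline) is not given in the sources used here. Wells listed as undetermined were taken as not detected, as was any Cq above 32. An assay was tested when it was detected throughout the WT or throughout the DKO_P53KO samples, which left 330. Levels were log2 values scaled to the mean Cq of 284 assays, and 104 of 3248 detected values under the floor of −7.40 were raised to it. Differences were fitted with limma 3.58.1 in R 4.3.3 over the 10 samples of the set (3 WT, 3 DKO and 4 DKO_P53KO), with p-values adjusted by Benjamini-Hochberg across the tested assays and called under 0.05. The procedure was tested on simulated data with a capped spread that was the same in all groups. The DKO_P53KO samples were more spread than the WT samples, which the simulation did not cover. A change against a group at the floor is a lower bound, whose SE is too small, and folds take 1 cycle as a doubling.

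The members and the lists of miRNAs were chosen with earlier results of these data known. Named were all tested assays of the miR-17 family and sensory clusters and all tested markers, the 12 largest rises and 12 largest falls among called assays detected in all 7 samples without overlap, the 6 largest bounds in each direction, 3 called members of each other list, the 5 assays of lowest mean Cq per group, the 5 of largest SD over DKO_P53KO among those detected in all 7 and the 5 most divergent pairs of arms. Other assays were named after their values were seen, as members of a list or of a seed family or as the opposite arm of such a member. Alternatives were no scaling, median scaling, a limit of Cq 35, missing in place of floored values, other filters, only the compared groups, trended robust estimation, a replicate block and each sample left out. No pairing by replicate number was visible, as the deviations of same-numbered WT and DKO_P53KO samples correlated at −0.128, 0.071 and 0.066. Such correlations cannot exclude that same-numbered samples share a litter or a run.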

Additional observations from a re-analysis of the deposited data

Results flagged for a closer look

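Of 81 sets of 4 DKO_P53KO levels checked, 6 had a sample apart from the other 3 by Dixon's criterion, which chance alone gives in about 1 of 20 sets. Of the 6, 4 concerned DKO_P53KO replicate 3. Its miR-183 level was −6.94 where the others lay at 0.06 to 0.66, and its miR-9 level was 5.31 against 7.76 to 8.02. In the same sample miR-709 was at 8.74 against 7.82 to 7.92, and miR-338-3p at −3.83 against −5.43 to −5.20. MiR-338-3p, an oligodendrocyte and neuronal miRNA, was called lower without that sample only. In DKO_P53KO replicate 4 miR-93# was at 2.63 against 3.10 to 3.18. In DKO_P53KO replicate 1 miR-30d was at 1.32 against 1.75 to 1.79.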

How the results depend on the processing

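The scaling was the choice that moved most. Without it 159 assays were called higher and 12 lower, against 72 and 83, and 5 named falls changed sign without a call: miR-30d to 0.170, miR-30b# to 0.149, miR-30a-5p to 0.189, miR-141# to 0.141 and miR-204 to 0.105. A further 13 named calls ended and 7 began, among them miR-92 and miR-25. Leaving out each sample gave 109 to 172 calls, 56 to 84 of them higher and 53 to 88 lower, where the lowest counts came without WT replicate 2. The mean Cq difference stayed between −1.465 and −1.008 under these omissions. With the replicate number as a block 151 assays were called, 74 higher and 77 lower, and 134 were called both ways. No pairing of the samples by these numbers was visible. The other settings gave 135 to 156 calls and moved none of these totals by over 1.5 times, although counts within some lists moved more. The 8 rises in miR-17~92 held in all alternatives in which all 9 assays were tested. With 3 and 4 samples in the groups, assays near the detection limit rest on floored values, and their changes are the least certain.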
